A study of Mus musculus with 2 samples.

Results

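The genes described here are 10 members of the interleukin-1, tumor necrosis factor and inflammasome system, namely Il1a, Il1b, Il1rn, Il1r1, Il18, Il18bp, Tnf, Tnfrsf1a, Nlrp3 and Casp1. They were chosen by name, all 10 were found among the 19059 genes of the files, and each was followed on its own through the cell types of the liver. Single-cell expression was measured in 1 liver library labelled AEG-1DMAC and 1 labelled AEG-1fl/fl. Both groups of mice carry the floxed allele of Mtdh, the gene of AEG-1, on a C57BL/6/J background. In AEG-1DMAC mice a Cre recombinase expressed from the Lyz2 (LysM) gene is present in addition, which acts in macrophages, monocytes and neutrophils. Both groups were fed HF/HSD, a high-fat and high-sugar diet that leads to steatohepatitis, for 20 weeks from 7 weeks of age, and livers were taken at 27 weeks. The study used males and females, and whether a library pools several livers, and of which sex, is not given in the sources used here. The Y-linked gene Ddx3y was at 59.6 and 50.6 CPM in hepatocytes, so both libraries held male cells.

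IL-1α and IL-1β, the products of Il1a and Il1b, act on the same receptor, IL1R1, and the product of Il1rn occupies that receptor without signalling. IL-1β and IL-18 are made as inactive precursors that caspase-1, the product of Casp1, cuts once the sensor NLRP3 has assembled an inflammasome. The product of Il18bp binds IL-18 outside the cell, and TNF acts through TNFRSF1A on most cell types. In the fatty liver, Kupffer cells, recruited macrophages and neutrophils are known as sources of these cytokines, and hepatocytes, stellate cells and endothelial cells as their receivers.

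The libraries held 2581 and 3535 cells and 79589511 and 90440089 counts, in the order AEG-1DMAC and AEG-1fl/fl, which is kept for all pairs of values below. Of these, 2571 and 3508 cells passed the filters, and 10 cell barcodes occurred in both libraries. With 1 library per genotype no test between them is possible. Intervals are 95% intervals that cover counting error only, and a level is the summed count of a gene in the cells of a type per 1000000 counts of those cells (CPM). Each gene is covered by its own probes, so levels are compared within a gene and not between genes. Cells were assigned to a type by marker genes, none of which is among the 10 genes. The endothelial marker Mmrn2 and the monocyte marker Ly6c2 were not found in the files, and every other marker was detected in its own cells. This detection is no separate check, since the cells were chosen by the same markers. This gave 1230 and 1207 hepatocytes, 269 and 699 macrophages, 252 and 360 endothelial cells, 189 and 300 stellate cells, 29 and 94 cholangiocytes, 6 and 44 neutrophils, and 16 and 20 monocytes. Another 450 and 539 cells met no gate. Mtdh went against the labels in macrophages, with 120.6 CPM (339 counts) in the library labelled AEG-1DMAC and 26.5 CPM (160 counts) in the library labelled AEG-1fl/fl, and in monocytes, with 227 and 26.5 CPM (27 and 5 counts), so directions are given by label only. Macrophages were 10.5% and 19.9% of the cells kept. Whether the Mtdh probes lie inside the deleted part is not given in the sources used here. Hepatocyte RNA was present in all other cells. Hepatocyte markers reached 50.8% and 30.3% of their hepatocyte level in macrophages, 48.9% and 33.5% in endothelial cells, and 61.3% and 46.8% in stellate cells.

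On GRCm38, Il1a (chr2:129299610-129309972) and Il1b (chr2:129364570-129371139) are neighbors on the minus strand of chromosome 2, with starts 61167 bases apart. Il1rn lies on the plus strand of the same chromosome (chr2:24336853-24351494). Il18 (chr9:50554827-50581840) and Casp1 (chr9:5298517-5307265) share chromosome 9, and Tnf (chr17:35199381-35202007), Il1r1 (chr1:40225080-40317257), Il18bp (chr7:102014885-102018690), Tnfrsf1a (chr6:125349362-125362484) and Nlrp3 (chr11:59541568-59566956) lie alone. The 250 bases before the start of the 3 ligand genes Il1a, Il1b and Tnf are shown because these genes share inducers and differ in the cells that held them. The sequences are from RefSeq on GRCm38.p6 and read 5′ to 3′ on the gene's own strand. Capitals mark matches, on either strand, to the consensus letters of the TATA box and of 4 motifs named after transcription factors that act on inflammatory or myeloid genes, AP-1, NF-kB, C/EBP and PU.1.
Il1a, chr2:129309973-129310222, minus strand: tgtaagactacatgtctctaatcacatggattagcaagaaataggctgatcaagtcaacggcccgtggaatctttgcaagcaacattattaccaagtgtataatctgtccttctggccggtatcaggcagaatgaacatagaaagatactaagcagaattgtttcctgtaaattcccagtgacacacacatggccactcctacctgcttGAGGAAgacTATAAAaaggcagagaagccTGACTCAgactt
Il1b, chr2:129371140-129371389, minus strand: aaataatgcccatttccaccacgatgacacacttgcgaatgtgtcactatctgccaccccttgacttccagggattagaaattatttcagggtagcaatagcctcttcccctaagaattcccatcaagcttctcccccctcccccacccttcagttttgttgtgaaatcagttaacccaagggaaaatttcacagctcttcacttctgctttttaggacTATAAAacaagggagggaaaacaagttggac
Tnf, chr17:35202008-35202257, minus strand: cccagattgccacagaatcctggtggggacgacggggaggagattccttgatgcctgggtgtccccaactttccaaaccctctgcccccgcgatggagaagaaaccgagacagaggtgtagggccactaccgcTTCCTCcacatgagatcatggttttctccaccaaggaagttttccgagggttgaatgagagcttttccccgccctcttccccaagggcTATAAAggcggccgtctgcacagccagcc

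All 3 windows held the TATA box letters TATAAA, beginning 32, 31 and 29 bases before the start of Il1a, Il1b and Tnf. Of the 32851 windows of this length in the RefSeq table, 12.4% held that motif on either strand, and among the other 7 genes Il18 held it, 175 bases before the start. The Il1a window also held the AP-1 motif, searched as TGANTCA and present in 6.75% of all windows. The PU.1 motif was searched as GAGGAA, which 23.3% of all windows held, and was found once in the Il1a window and once in the Tnf window. No other motif matched in the Il1b window, and no matches to different motifs overlapped in these 3 windows. Over all 14 windows of the 10 genes, 4 held the PU.1 motif, the remaining ones being those of Nlrp3 and Casp1. One window of Il1rn held the AP-1 motif and another the NF-kB motif, which occurred in 1.41% of all windows. The C/EBP motif, searched as TTGCNNAA and present in 9.56% of all windows, was found before Il18bp and before one of the starts of Il1r1. These are matches of letters and say nothing of binding.

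Il1a was highest in endothelial cells and next in macrophages. Its level was 144 CPM (230 counts) and 140.3 CPM (243 counts) in endothelial cells, and 80.4 CPM (226 counts) and 72.6 CPM (438 counts) in macrophages. These levels differed from each other beyond counting error in both libraries. Stellate cells held 15.4 and 10.9 CPM, and hepatocytes 4.70 and 1.74 CPM. Macrophage markers were at 13.2% and 11.5% of their macrophage level in stellate cells. Endothelial markers there were at 8.10% and 6.08% of their endothelial level. The part of this RNA in the stellate Il1a level was not tested. No count of Il1a was found in the neutrophils of either library, a limit of 21.0 CPM in the 44 cells of the library labelled AEG-1fl/fl when 3 counts are allowed.

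Il1b had another order of cells. It was highest in neutrophils, at 919 CPM (489 to 1572, 13 counts in 6 cells) and 1549 CPM (1351 to 1767, 221 counts in 44 cells). Monocytes held 101 and 255 CPM and macrophages 119.9 CPM (337 counts) and 69.8 CPM (421 counts). Among these, monocytes and macrophages could not be ordered in the library labelled AEG-1DMAC, whereas in the library labelled AEG-1fl/fl monocytes were above macrophages beyond counting error. In the latter, however, 33 of the 48 monocyte counts lay in 1 of 20 cells. Endothelial cells, the main site of Il1a, held only 5.65 and 6.35 CPM of Il1b (9 and 11 counts). Neutrophils were 0.233% and 1.25% of the cells and held 1.53% and 19.3% of all Il1b counts, while macrophages held 39.8% and 36.7%. The counts lay in few cells, since the 5 macrophages with the most Il1b held 127 of 337 and 140 of 421 counts. One macrophage of the library labelled AEG-1DMAC held 75, with no count of the Kupffer cell genes Clec4f and Cd5l and 5 of Ccr2, the chemokine receptor of recruited monocytes. The top macrophage of the library labelled AEG-1fl/fl held 76 in a total of 65467 counts, together with 23 counts of the T cell gene Cd3e.

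Il1rn, the receptor antagonist, had its highest levels in myeloid cells and in cholangiocytes. Monocytes held 151.5 and 207 CPM (18 and 39 counts) and macrophages 68.7 CPM (193 counts) and 87.9 CPM (530 counts). Cholangiocytes, the epithelium of the bile ducts, held 64.6 CPM (42.5 to 93.9, 27 counts in 29 cells) and 216.5 CPM (192 to 243, 281 counts in 94 cells). In the library labelled AEG-1fl/fl cholangiocytes were thus above macrophages beyond counting error, and in the library labelled AEG-1DMAC the values overlapped. Neutrophils held 147 CPM (21 counts) in the library labelled AEG-1fl/fl and no count in the 6 cells of the other library. Epithelial cells are known to make an intracellular form of this protein from another first exon, and the counts are summed over all forms. Macrophage markers in cholangiocytes were at 2.19% and 2.74% of their macrophage level, with 2 and 0 of the 13 at 0. Hepatocyte RNA accounted for 5.40% and 1.44% of the Il1rn level there. Hepatocytes had a low level of 8.79 and 7.99 CPM but held 48.3% and 26.8% of the Il1rn counts, against 17.77% and 28.15% in macrophages. The hepatocyte level was 12.8% and 9.09% of the macrophage level, while macrophage markers in hepatocytes were at 3.39% and 2.20%. The part of macrophage RNA in the hepatocyte Il1rn level was not tested.

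Il18 was highest in macrophages and monocytes. Macrophages held 66.2 CPM (186 counts) and 88.9 CPM (536 counts), and the 10 and 9 counts of monocytes gave 84.2 and 47.8 CPM, which overlapped the macrophage level. Hepatocytes had a low level of 11.5 and 8.23 CPM and held 60.2% and 38.2% of the Il18 counts. Cholangiocytes held 21.5 and 25.4 CPM. Il18bp, the inhibitor of IL-18, was a macrophage gene in both libraries, at 487 CPM (1368 counts) and 526 CPM (3173 counts). The next cell types, stellate at 82.7 and 98.4 CPM and endothelial at 74.7 and 68.1 CPM, were far below, apart from the 2 counts (141 CPM, 17.1 to 511) of the 6 neutrophils in the library labelled AEG-1DMAC, whose interval reached the macrophage level. Macrophage markers were at 13.2% and 11.5% of their macrophage level in stellate cells and at 7.44% and 7.88% in endothelial cells. The part of macrophage RNA in the Il18bp levels of these 2 cell types was not tested. Macrophages held 35.2% and 54.4% of all Il18bp counts.

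Tnf was sparse, with 195 and 268 counts per library. T and NK cells held 80.0 CPM (8 counts) and 35.0 CPM (10 counts), and macrophages 9.25 CPM (6.04 to 13.6, 26 counts) and 23.2 CPM (19.5 to 27.4, 140 counts). T and NK cells were above macrophages beyond counting error in the library labelled AEG-1DMAC only, and the difference between the libraries in this order was not tested. Neutrophils of the library labelled AEG-1fl/fl held 49.1 CPM (7 counts). Hepatocytes were at 0.569 and 0.444 CPM, and endothelial cells held 1 and 0 counts. In the library labelled AEG-1DMAC, 93 of the 195 counts lay in cells that met no gate. One such cell held 47 of them, in a total of 77169 counts with 4558 of Alb and 105 of Cd5l, genes of hepatocytes and of Kupffer cells. A single barcode therefore held more Tnf than all 269 macrophages of that library.

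**Figure D1:**
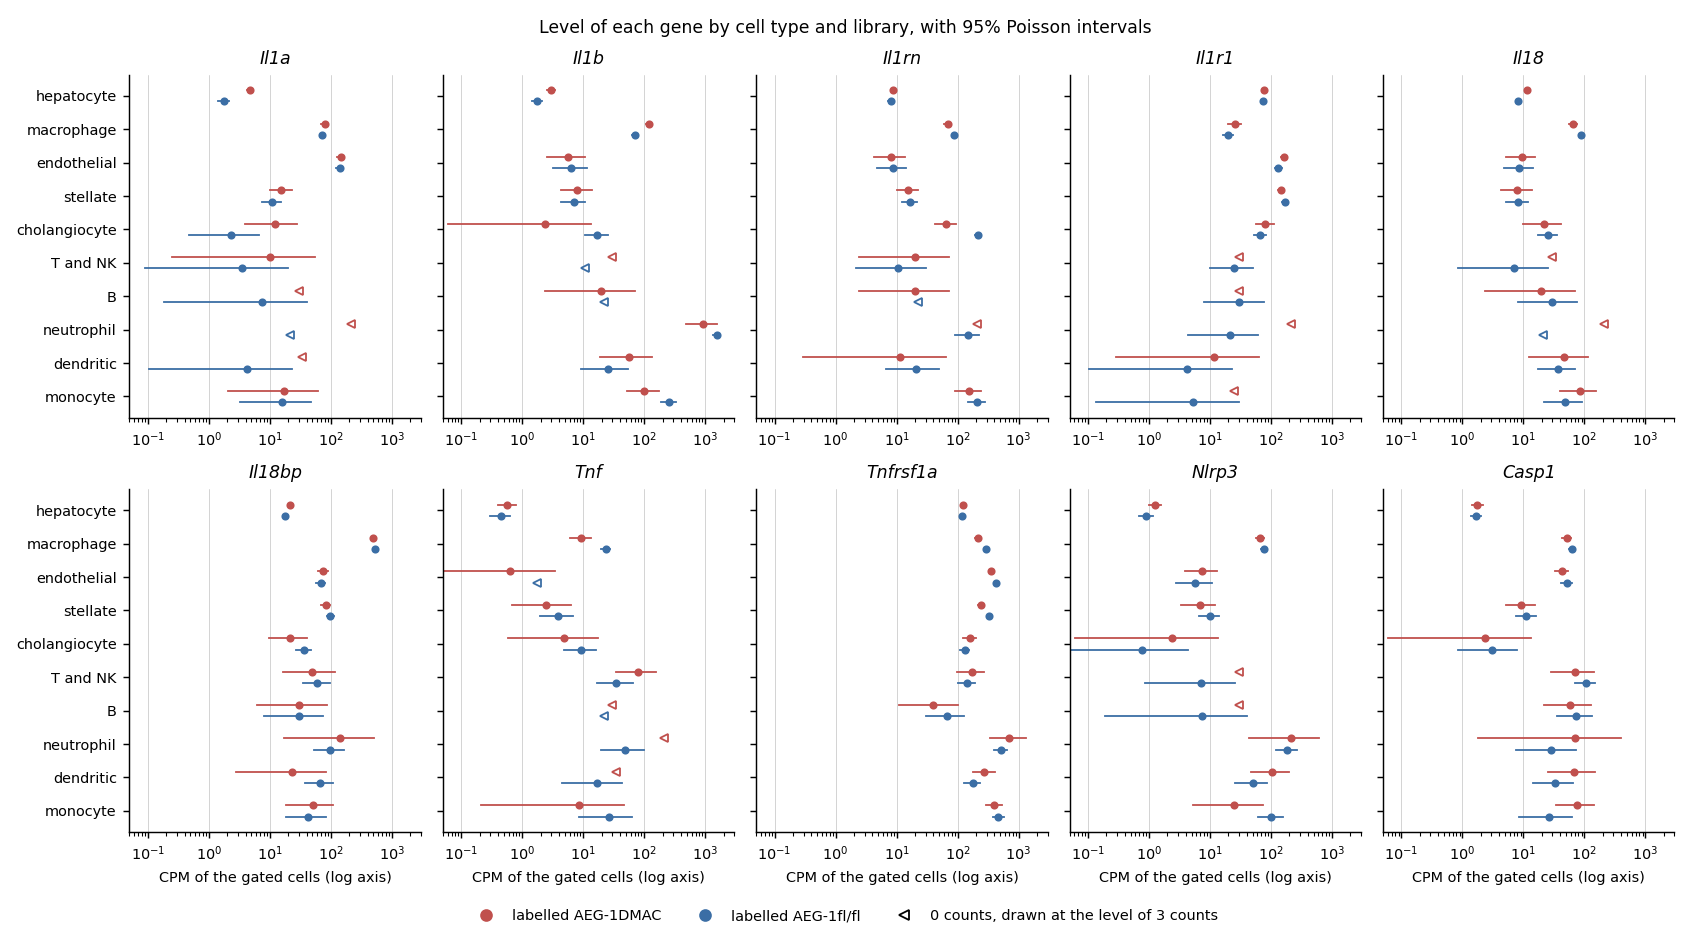
Level of each gene (CPM of the cells of a type, log axis) in 10 cell types, with 1 point per library and 95% Poisson intervals. Open triangles mark a count of 0, drawn at the level of 3 counts. Il1b reached 919 and 1549 CPM in neutrophils, Il1a 144 and 140.3 CPM in endothelial cells, and Il1rn 64.6 and 216.5 CPM in cholangiocytes.

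The receptor genes were spread over more cell types. Il1r1, the signalling IL-1 receptor, was highest in endothelial cells (165 CPM, 263 counts, and 132.8 CPM, 230 counts) and stellate cells (147 CPM, 238 counts, and 169 CPM, 481 counts). The order of these cell types was not resolved in the library labelled AEG-1DMAC, and stellate cells were above endothelial cells beyond counting error in the library labelled AEG-1fl/fl. Hepatocytes followed at 76.1 CPM (4545 counts) and 74.8 CPM (4716 counts), indistinguishable from cholangiocytes at 81.3 and 66.3 CPM. Hepatocytes were 47.8% and 34.4% of the cells, their median depth was 24778 and 23943 counts, and they held 72.7% and 69.2% of all Il1r1 counts. Macrophages held 25.6 and 19.9 CPM, less than the 38.7 and 22.6 CPM that their share of hepatocyte RNA would carry, so no level of their own was detectable.

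Tnfrsf1a, the main TNF receptor, was detected in all 10 cell types of both libraries. It was highest in neutrophils (707 CPM, 10 counts, and 511.5 CPM, 73 counts), monocytes (396 and 467 CPM) and endothelial cells (355 CPM, 565 counts, and 434 CPM, 752 counts), whose intervals overlapped from one to the next. Stellate cells held 239 and 324.5 CPM, macrophages 213 and 289 CPM and hepatocytes 121 and 119.7 CPM. B cells were lowest with 39.6 and 66.6 CPM, from 4 and 9 counts. Hepatocyte RNA would carry 16.6% and 9.23% of the endothelial level and 31.0% and 17.3% of the stellate level.

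Nlrp3, the inflammasome sensor, was a gene of neutrophils and mononuclear phagocytes. Macrophages held 65.5 CPM (184 counts) and 75.6 CPM (456 counts), which was 42.5% and 58.4% of all Nlrp3 counts. Neutrophils held 212 CPM from 3 counts and 182 CPM from 26 counts, monocytes 25.3 and 101 CPM (3 and 19 counts), and endothelial, stellate and cholangiocyte cells under 10 CPM. Casp1 was broader. It was found in macrophages at 51.6 CPM (145 counts) and 62.2 CPM (375 counts), in endothelial cells at 43.3 CPM (69 counts) and 51.4 CPM (89 counts), in T and NK cells at 70.0 and 105 CPM (7 and 30 counts) and in B cells at 59.4 and 74.0 CPM (6 and 10 counts). The intervals of macrophages and endothelial cells overlapped in both libraries. Hepatocytes held 1.77 and 1.68 CPM, 3.44% and 2.70% of the macrophage level, and so were at or near the level that macrophage RNA in them would give, since macrophage markers there were at 3.39% and 2.20%.

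**Figure D2:**
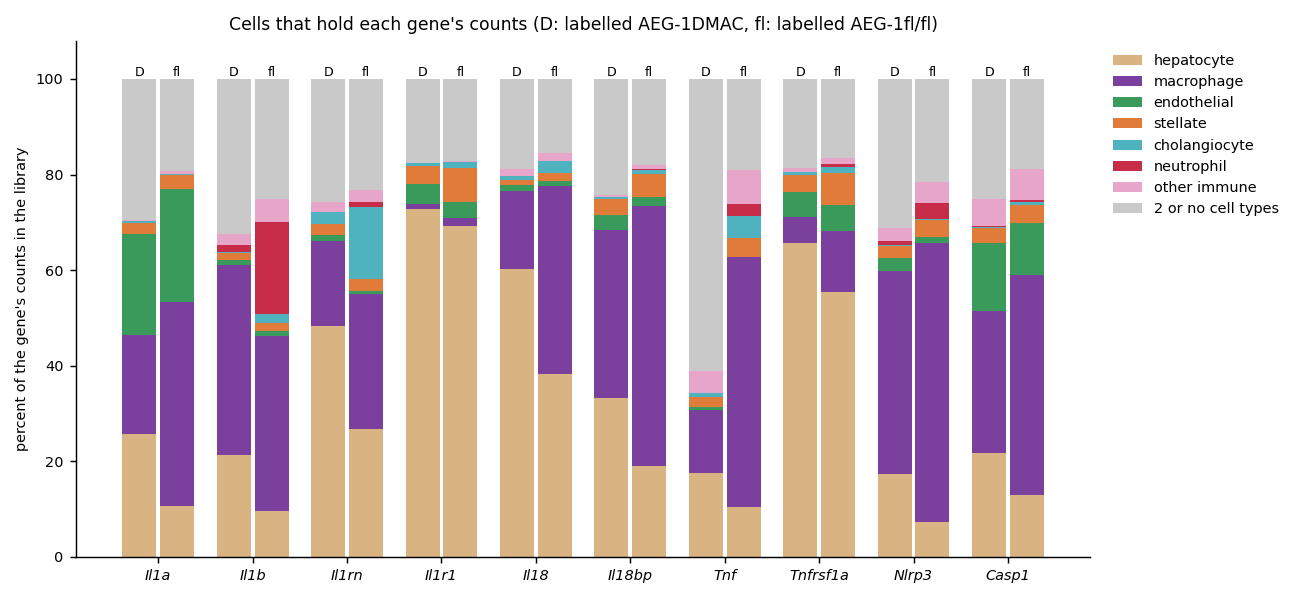
Percent of each gene's counts in a library that lay in cells of each type, with 1 bar per library (D, labelled AEG-1DMAC; fl, labelled AEG-1fl/fl). Hepatocytes held 72.7% and 69.2% of Il1r1, macrophages 39.8% and 36.7% of Il1b, and 61.0% of Tnf in the library labelled AEG-1DMAC lay in cells with no or more than 1 cell type.

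Among the 4 cell types with at least 40 cells in each library, the highest one was the same in both libraries for 9 of the 10 genes, and it was the macrophage for 7. These were Il1b, Il1rn, Il18, Il18bp, Tnf, Nlrp3 and Casp1, whereas Il1a and Tnfrsf1a came first in endothelial cells. The exception was Il1r1, with endothelial cells in one library and stellate cells in the other. This count leaves out neutrophils, monocytes, cholangiocytes and lymphocytes. For Casp1, macrophages were not above endothelial cells beyond counting error in either library. With the limit at 25 cells, chosen after the data were seen, cholangiocytes came first for Il1rn in the library labelled AEG-1fl/fl, and T and NK cells came first for Tnf and Casp1 in both. The T and NK levels rested on 7 to 30 counts. Their lead was beyond counting error only for Tnf in the library labelled AEG-1DMAC.

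The next comparison asked how far the levels differed between libraries within a cell type. A gene was counted when it had at least 50 counts in both libraries together and differed by at least 1.5-fold, in CPM of the library labelled AEG-1DMAC over CPM of the library labelled AEG-1fl/fl. In macrophages all 10 genes could be compared. Tnf was lower, with a log2 ratio of -1.33 (-1.99 to -0.72), and Il1b was higher, with 0.78 (0.57 to 0.99). By the same rule 11.1% of all 10421 genes compared in macrophages were lower and 8.25% higher, so 1 of 10 in each direction was near that background. The median log2 ratio was -0.24 for the 10 genes and -0.11 for all genes. For Tnf the ratio was -0.22 when macrophages were taken as clusters, which ended the call, and for Il1b it was 0.50 by clusters and 1.49 without cells over 3 times the median count. The other 8 genes differed by less than 1.5-fold. Among these were Tnfrsf1a, at -0.44 (-0.58 to -0.31), Il18, at -0.43 (-0.67 to -0.18), and Il1rn, at -0.36 (-0.60 to -0.12). Tnfrsf1a (-0.49 to -0.27) and Il18 (-0.62 to -0.03) kept their sign under the alternatives tried, and Il1rn was at 0.57 in the macrophages low in lipid-associated markers. Il18bp was at -0.11 (-0.21 to -0.02), Nlrp3 at -0.21 (-0.46 to 0.04) and Casp1 at -0.27 (-0.56 to 0.01). Each of these had a positive ratio once the hepatocyte profile was subtracted and the remainder rescaled. Hepatocyte markers were at 50.8% and 30.3% in the same cells.

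In endothelial cells 5 genes could be compared and none was past 1.5-fold, against 12.6% of all genes lower and 6.49% higher. Il1a stood at 0.04 (-0.23 to 0.31), Il1r1 at 0.31 (0.05 to 0.58), and Tnfrsf1a at -0.29 (-0.45 to -0.13). In stellate cells 5 genes could be compared and again none was past 1.5-fold, against 12.5% lower and 4.05% higher. Tnfrsf1a stood at -0.44 (-0.62 to -0.27) and Il1r1 at -0.20 (-0.43 to 0.02). Il1r1 and Tnfrsf1a were thus within 1.5-fold in both cell types as measured. With the hepatocyte profile subtracted and the remainder rescaled, Il1r1 in endothelial cells was at 0.61, past 1.5-fold. Among other receptor genes, given below, Tnfrsf1b was past 1.5-fold in both cell types and Il1rap in endothelial cells. Hepatocyte RNA would carry 92.9% and 36.8% of the endothelial Tnfrsf1b level and 88.0% and 128% of that of Il1rap.

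In hepatocytes all 10 genes could be compared. Il1r1 stood at 0.02 (-0.03 to 0.08) and Tnfrsf1a at 0.01 (-0.04 to 0.06), so that the interval of each receptor in these cells, the largest class, lay well within 1.5-fold. With the hepatocytes taken in other ways, Il1r1 ranged from -0.02 to 0.29 and Tnfrsf1a from -0.03 to 0.04. Il1a was higher by a log2 ratio of 1.43 (1.11 to 1.76), with 281 and 110 counts, and Il1b by 0.79 (0.44 to 1.14), with 180 and 110 counts. None of the 10 was lower. Over all 12025 genes compared in hepatocytes, 4.87% were higher and 5.46% lower. These levels were small beside those of the sources, as hepatocytes held 3.26% and 1.24% of the endothelial Il1a level and 2.51% and 2.50% of the macrophage Il1b level. Markers of the main sources of Il1a and Il1b by count differed in the same direction in these cells, and those of neutrophils in the other. The summed endothelial markers were at 168 and 105.3 CPM in hepatocytes (1.66% and 0.822% of their endothelial level, none of 11 at 0), and the summed macrophage markers at 757 and 577 CPM (3.39% and 2.20%, none of 13 at 0), while the 6 neutrophil markers summed to 6.54 and 11.6 CPM, with none at 0. Their part in the Il1a and Il1b ratios was not tested. The hepatocyte with the most Il1b in the library labelled AEG-1DMAC held 24 counts of it, with 46 of Cd5l. Without the 5 cells with the most counts of each gene, the ratio of Il1b was 0.42 and that of Il1a 1.41.

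In cholangiocytes 4 genes could be compared and 2 were lower, Il1rn and Il18bp, against 9.40% of all genes lower and 7.67% higher. Il1rn had a log2 ratio of -1.75 (-2.37 to -1.17), from 27 and 281 counts. One cholangiocyte of the library labelled AEG-1fl/fl held 66 of the 281 counts in a total of 78331, with 36 counts of Epcam and 39 of Krt19, genes of bile duct epithelium. Without cells over 3 times the median count the ratio was -1.02, as a mean over cells it was -0.94, and without the 5 cells with the most Il1rn in each library it was -3.15. The ratio of Il18bp, -0.75 from 9 and 47 counts, had an interval of -1.97 to 0.29 that included 0. Summed cholangiocyte markers were at 3385 and 3520 CPM in these cells. Markers of the myeloid cells that hold Il1rn were lower in the library labelled AEG-1DMAC as well. They were at 2.39 and 42.4 CPM for neutrophils (5 and 1 of 6 at 0) and 11.95 and 60.9 CPM for monocytes (2 and 0 of 4 at 0). Those of macrophages were at 490.1 and 719.5 CPM. The part of these myeloid cells in the Il1rn ratio was not tested.

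**Figure D3:**
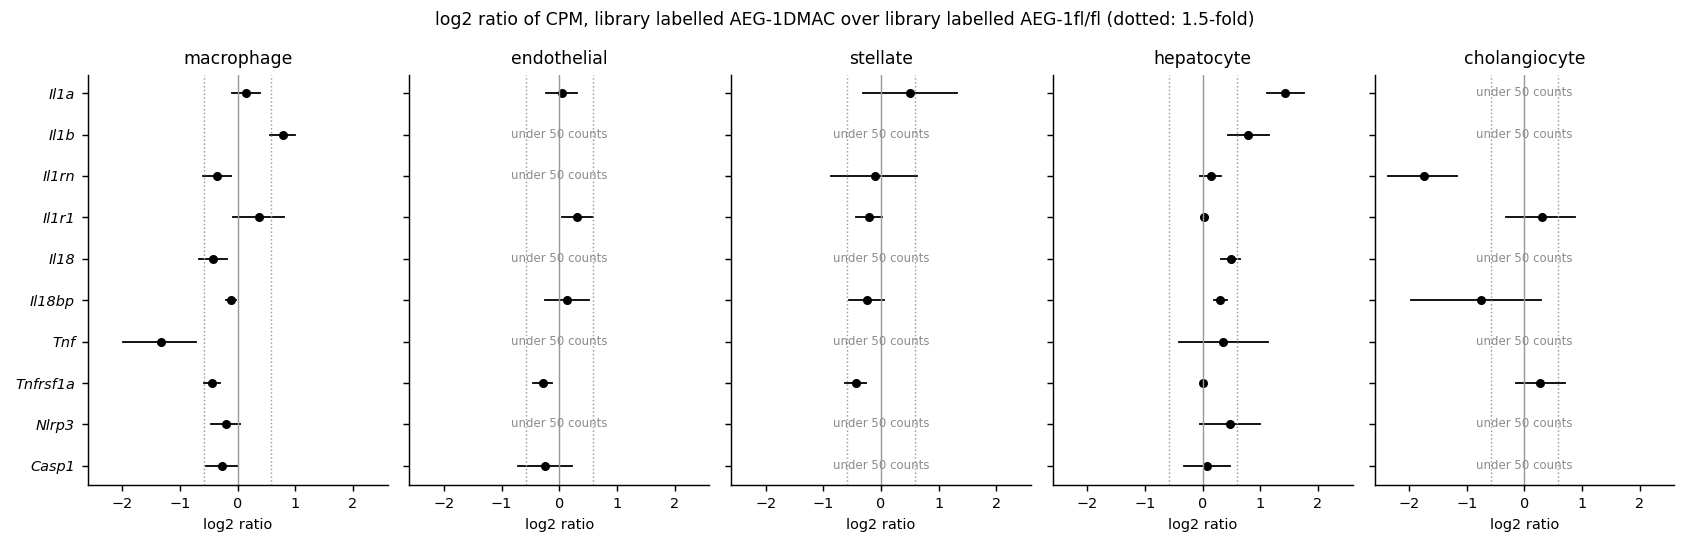
log2 ratio of CPM (library labelled AEG-1DMAC over library labelled AEG-1fl/fl) for each gene in 5 cell types, with 95% Clopper-Pearson intervals and dotted lines at 1.5-fold. In macrophages Tnf was at -1.33 and Il1b at 0.78, in hepatocytes Il1a was at 1.43, and in cholangiocytes Il1rn was at -1.75.

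The remaining cell types held few counts of these genes. In monocytes Il1b was at 101 and 255 CPM, a log2 ratio of -1.34 (-2.38 to -0.40), but 11 of the 12 counts and 33 of the 48 counts lay in 1 cell of each library. In neutrophils Il1b had a ratio of -0.75 (-1.68 to 0.05). For Tnf in T and NK cells, 8 and 10 counts gave an interval that included 0, -0.35 to 2.69. Nlrp3 in monocytes rested on 3 and 19 counts, with an interval of the ratio from -4.40 to -0.23.

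Macrophages were then split by a score of lipid-associated genes (Gpnmb, Mmp12, Trem2, Cd9, Itgax, Spp1, Fabp5 and Lpl), none of which is among the 10 genes. The cells past the limit of 0.1 were 22.3% (60 of 269) and 55.1% (385 of 699) of the macrophages. The split is a range of 1 score and not a cell type, and 10 of the 60 and 46 of the 385 cells lay within 0.02 of the limit. Mmp12 was at 94.9 and 167 CPM below the limit and at 1285 and 1342 CPM above it, and the Kupffer cell gene Clec4f at 2856 and 2943 CPM below and 1874 and 1265 CPM above.

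Tnf and Il1rn were higher in the high range of both libraries. Tnf was at 5.69 CPM (13 counts) low and 24.8 CPM (13 counts) high in the library labelled AEG-1DMAC, and at 6.22 CPM (15 counts) low and 34.6 CPM (125 counts) high in the library labelled AEG-1fl/fl. These are log2 ratios of high over low of 2.12 (0.90 to 3.35) and 2.47 (1.70 to 3.35). Il1rn was at 51.2 CPM low and 145 CPM high in the former, and at 34.4 CPM low and 123.5 CPM high in the latter, where the ratio was 1.84. In the former, the ratio of Il1rn had an interval of 1.07 to 1.93. Both genes thus had the same order in both libraries. Within a range, Tnf differed less between the libraries than in all macrophages. The log2 ratio by label was -0.13 (-1.32 to 1.04) low and -0.48 (-1.43 to 0.35) high, against -1.33 over all macrophages, and in the low range only 28 counts were behind it.

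Il1b did not share this order. It was at 95.4 CPM low and 227 CPM high in the library labelled AEG-1DMAC, and at 70.1 and 69.7 CPM in the library labelled AEG-1fl/fl. Of the 119 counts in the high range of the library labelled AEG-1DMAC, 75 lay in 1 cell. Without the 5 cells with the most counts in each library, the levels of the high range were 36.2 and 34.9 CPM, a log2 ratio of 0.05 (-0.90 to 0.88), and the ratio of the low range was 0.67 (0.30 to 1.03). Il18 was at 67.4 CPM low and 61.0 CPM high, and at 103 CPM low and 79.3 CPM high, a ratio of high over low of -0.14 (-0.74 to 0.41) and -0.38 (-0.63 to -0.13). The ratio of high over low was at most 0.37 for Nlrp3, 0.47 for Casp1 and 0.18 for Il18bp in either library.

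**Figure D4:**
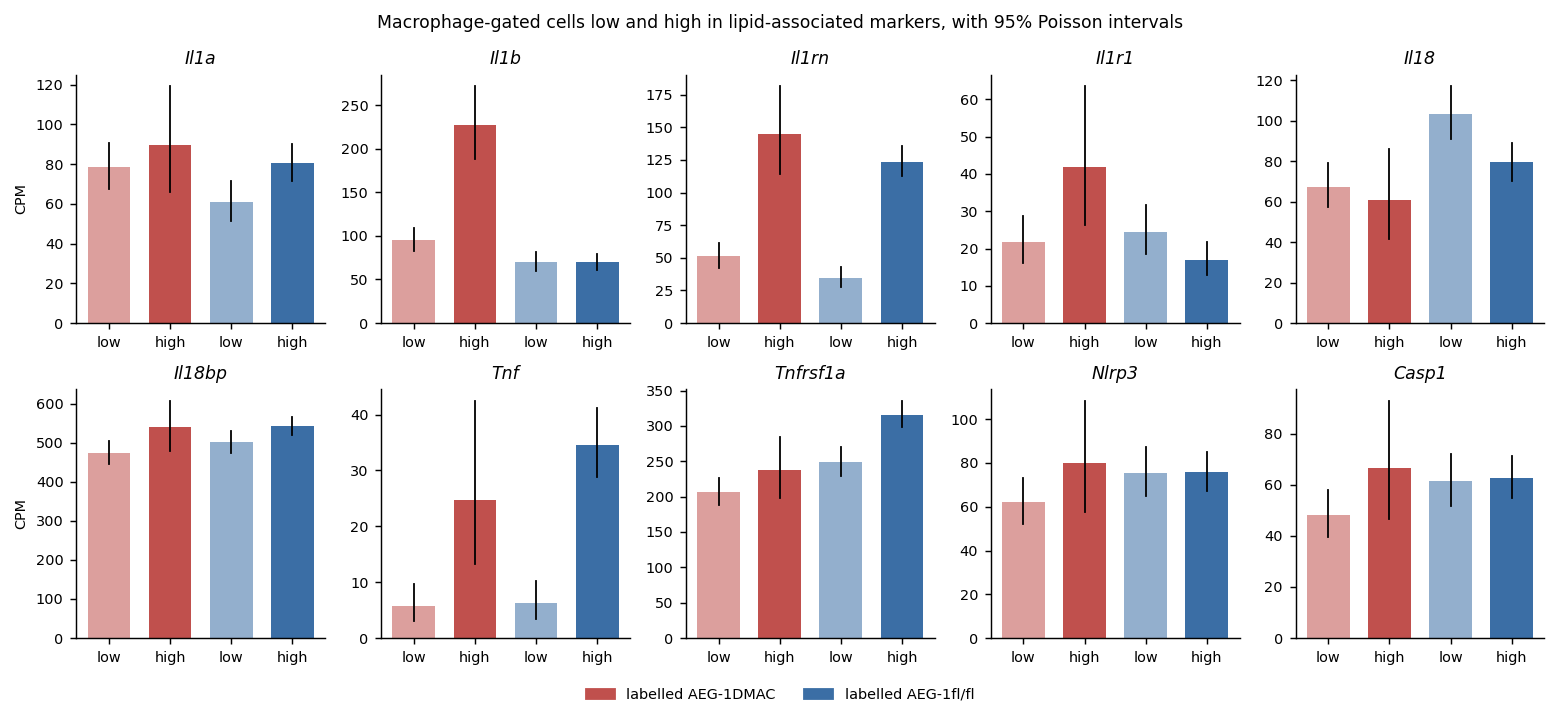
Level (CPM) of each gene in macrophages low and high in lipid-associated markers, in the library labelled AEG-1DMAC (first pair of bars) and the library labelled AEG-1fl/fl (second pair), with 95% Poisson intervals. Tnf stood at 5.69 CPM low and 24.8 CPM high in one library and at 6.22 and 34.6 CPM in the other, and the high bar of Il1b at 227 CPM rests on 1 cell with 75 of 119 counts.

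Other genes of these pathways were followed from lists made by function, and counts are to be read against the shares of all genes given above for each cell type. With the hepatocyte profile subtracted, those shares were 15.4% lower and 9.14% higher in macrophages, 12.9% and 8.59% in endothelial cells, and 20.5% and 10.3% in stellate cells, where a gene left in 1 library only is counted as well. The rescaling raised the ratios of genes with little hepatocyte RNA. P2rx7 in macrophages, with 0.592% and 0.395% of such RNA, went from 0.03 to 0.50. Casp4 in endothelial cells, with 1.41% and 0.937%, went from -0.16 to 0.20. The members past 1.5-fold after subtraction were Tnf (lower) and Il1b (higher) of 10 in macrophages, Il1r1 (higher) of 5 in endothelial cells and Il1a (higher) of 5 in stellate cells. Il1a in stellate cells rested on 25 and 31 counts, and 21 of the 25 lay in 5 cells. Its ratio ranged from -1.17 to 0.72 over the alternatives, so its direction was not stable. Macrophage and endothelial RNA in stellate cells was not subtracted. Among the other ligands and receptors of the IL-1 family, 2 of 12 could be compared in macrophages and in endothelial cells and 3 in stellate cells and in hepatocytes. Il33, an alarmin of stellate and endothelial cells, was lower in stellate cells (10 and 59 counts, log2 ratio -1.75), and Il1rap, the shared co-receptor, was higher in endothelial-gated cells (51 and 26 counts, 1.09). Hepatocyte RNA would carry 88.0% and 128% of that Il1rap level, so that 7.28 and 0 CPM were left after subtraction and rescaling. Of the 11 genes of IL-1 receptor signalling, Irak2 was lower in macrophages and, with the kinase gene Map3k7, in endothelial cells (-1.12 and -1.02), and none was past 1.5-fold in stellate cells or hepatocytes. After subtraction Irak2 in macrophages was at -0.57, within 1.5-fold, and Irak3 (0.76) and Peli1 (0.68) were higher there, while both endothelial genes stayed lower. Among 14 further TNF pathway genes, 2 of 13 compared were lower in macrophages, 4 of 12 in endothelial cells and 2 of 12 in stellate cells. In macrophages and in endothelial cells 1 was higher, and in stellate cells none. Tnfrsf1b, the second TNF receptor, was lower in macrophages (-0.76), endothelial cells (-0.62, with an interval of -1.26 to 0.00) and stellate cells (-0.87). In macrophages it was at -0.39 after subtraction, within 1.5-fold. Hepatocyte RNA would carry 92.9% and 36.8% of the endothelial Tnfrsf1b level, so that 3.035 and 32.3 CPM were left there. Fadd, an adaptor of death receptors, was higher in macrophages (0.66) and endothelial cells (0.60). After subtraction it was at 1.02 and 0.93, values that include the upward shift of the rescaling and are no separate check. Casp8 was lower in endothelial cells (-0.81) and stellate cells (-0.68), also after subtraction (-0.61 and -1.19). After subtraction 0, 2 and 4 genes of this list were lower in macrophages, endothelial cells and stellate cells. Ltb, the gene of lymphotoxin β, was lower in macrophages (-0.97, and -0.55 after subtraction) and in hepatocytes at 0.703 and 1.41 CPM. Of 15 further inflammasome genes all were compared in macrophages, where 1, Pycard, the adaptor between NLRP3 and caspase-1, was lower (-0.79) and none higher. After subtraction none was lower, with Pycard at -0.36, and 4 were higher, Casp4, Nlrc4, Naip6 and Mefv, between 0.59 and 0.63. Hepatocyte RNA was at most 3.19% of the level of these 4 genes. Which genes of this list were past 1.5-fold thus depended on the subtraction and its rescaling, while Pycard and these 4 genes kept their sign. Panx1, a channel, was lower in stellate cells (-1.26) and hepatocytes (-1.11), P2rx7, the ATP receptor upstream of NLRP3, in stellate cells (-1.08), and Txnip, which is known to bind NLRP3, in hepatocytes (124.7 and 451 CPM, -1.85).

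Known target genes of IL-1 and TNF signalling were counted in the same way. In stellate cells 9 of 15 were lower and none higher, with a median log2 ratio of -0.76 against -0.13 for all genes and 12.5% of all genes lower. They were the feedback inhibitor Tnfaip3 (-1.43), Relb (-0.59), the chemokine Cxcl1 (-1.58), the adhesion molecules Icam1 (-0.76) and Vcam1 (-1.23), and the acute-phase genes Saa1 (-0.90), Saa2 (-0.79), Saa3 (-1.49) and Lcn2 (-1.46). Hepatocytes also express the acute-phase genes. In hepatocytes 6 of 16 were lower, Cxcl2 (-1.35), Saa3 (-1.41), Lcn2 (-1.22), Icam1, Saa1 and Saa2, and 1, Socs3, was higher, against 5.46% and 4.87% of all genes. Hepatocyte RNA would give 103% and 75.2% of the Saa1 level of stellate cells and 176% and 114% of the Lcn2 level. With the hepatocyte profile subtracted, 7 of the 15 were lower in stellate cells, against 20.5% of all genes. They were Tnfaip3 (-1.52), Cxcl1 (-2.62), Vcam1 (-0.88), Saa1, Saa2, Saa3 and Zfp36 (-0.60, against -0.24 as measured). In the library labelled AEG-1DMAC, Saa1 and Saa2 were left at 0 and hepatocyte RNA would give 87.1% of the Saa3 level. Icam1 (-0.43) and Relb (-0.30) were within 1.5-fold and Lcn2 was at 0 in both libraries.

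In macrophages 4 of 16 targets were lower, Cxcl1 (-1.39), the chemokine Ccl2 (-1.03), Vcam1 (-1.10) and Lcn2 (-0.60), and none higher, against 11.1% and 8.25% of all genes. Hepatocyte RNA would carry 119% and 109% of the Lcn2 level and 196.5% and 49.7% of the Cxcl1 level there. After subtraction Lcn2 was at 0 in both libraries and 4 targets were lower. These were Cxcl1 (0 and 10.7 CPM left), Ccl2 (-0.94), Vcam1 (-0.65) and Socs3 (0.09 and 6.38 CPM left). Then 3 were higher, Cxcl2 (0.95), Saa1 (6.07 and 0 CPM left) and Saa3 (4.93 and 0 CPM left). Nfkbia, the inhibitor of NF-kB, was at 0.16 (0.04 to 0.28) there. In endothelial cells 4 of 13 were lower, Relb (-0.86), Icam1 (-0.71), Saa3 (-1.75) and Lcn2 (-1.43), and 2 higher, Socs3 at 1.73 (1.06 to 2.44) and Zfp36 at 0.63 (0.36 to 0.89). Both of the latter stayed higher after subtraction, at 2.13 and 1.40, values that include the rescaling. Hepatocyte RNA would give 77.9% and 83.4% of the Zfp36 level there, and 11.4% and 13.9% of the Socs3 level. Of the 4 lower genes, Relb was then at -0.60 and Icam1 at -0.38, Saa3 was left at 0 and 33.4 CPM, and Lcn2, of which hepatocyte RNA would carry 174% and 103%, was at 0 in both. Socs3, an inhibitor of cytokine receptor signalling, was thus higher in endothelial cells and in hepatocytes, at 0.89 (0.71 to 1.08) in the latter. It stood at 0.07 (-0.51 to 0.65) in stellate cells and at -0.15 in macrophages, as measured.

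**Figure D5:**
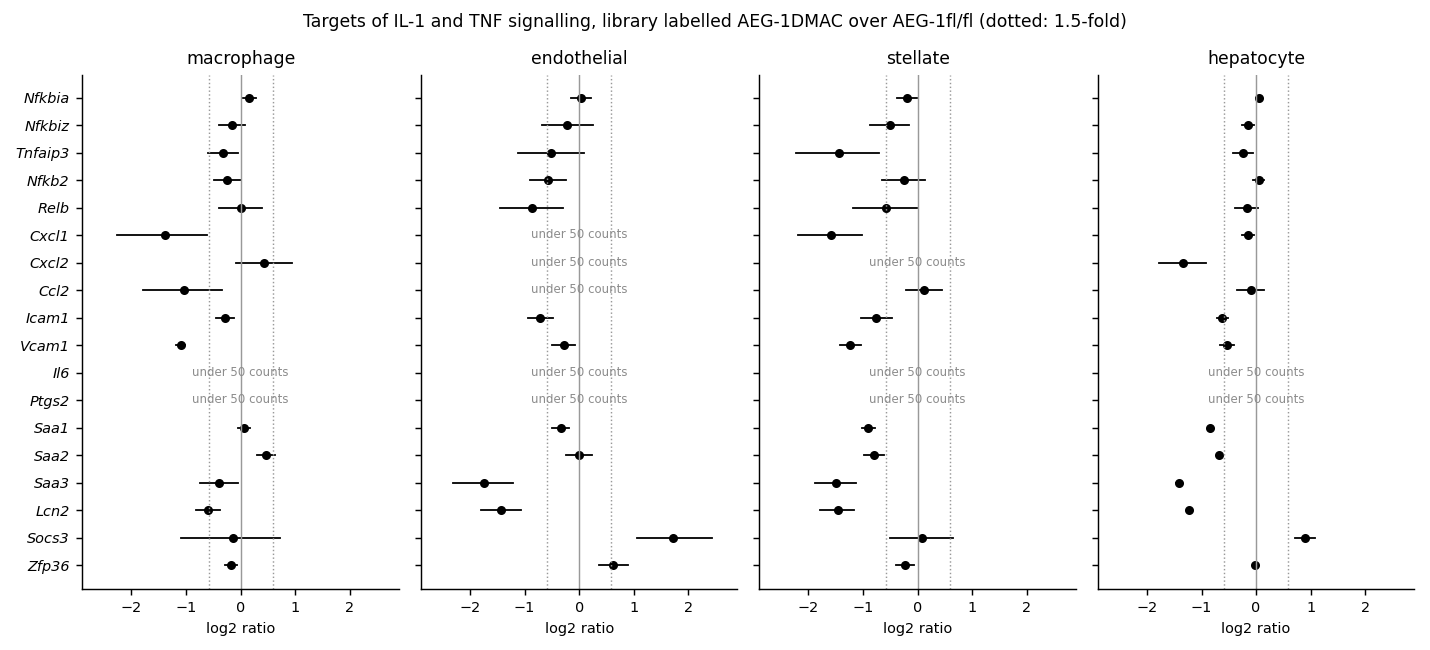
log2 ratio of CPM (library labelled AEG-1DMAC over library labelled AEG-1fl/fl) of 18 target genes of IL-1 and TNF signalling in 4 cell types, with 95% Clopper-Pearson intervals and dotted lines at 1.5-fold. In stellate cells 9 of the 15 genes with enough counts were lower by at least 1.5-fold, and in endothelial cells Socs3 lay at 1.73.

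The genes whose levels followed the members most closely were taken over 8 points, 4 cell types in 2 libraries, which share libraries, depth and free hepatocyte RNA, and the correlations are given as a description. Il1a was followed by Mlh3, Etf1 and Lamtor3 (Pearson r 0.994, 0.994 and 0.992). Il1b was followed by the formyl peptide receptor genes Fpr1 and Fpr2 of phagocytes (r 0.995 and 0.994) and by Tmc3. Il18bp was followed by Aif1, Lst1 and Rac2, genes of myeloid cells (r 0.998 each), Nlrp3 by Blvra and Cd163, Casp1 by Msr1, Abi3 and Plekho1, and Il1rn by Mpeg1, Zfp992 and Rassf2. The nearest to Tnf were Mitf, Sipa1l2 and Mbp, to Il18 Stap1, Pik3cb and Mospd2, to Il1r1 Rhod, Cnn3 and Robo1 (r 0.983, 0.977 and 0.977), and to Tnfrsf1a Lsm8 and Smad1.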

How the data were processed

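Whole-transcriptome probe counts per cell, 1 library per genotype, were used as deposited by the authors. Reads had been mapped to mm10 and counted with Cell Ranger 7.1.0, per the submitters' processing notes, and no values were normalized before deposit. Cells were kept when 100 genes or more were detected and mitochondrial genes took no more than 10% of the counts, and no doublet caller was run, so cells over 3 times the median count of their class were left out as an alternative. Each cell was gated by the mean capped level of marker genes of 10 cell types, with an own score of at least 0.15, at least 1.5 times the next score and at least 3 markers detected, or, for hepatocytes, a score of at least 0.3 with all others under 0.05. Clusters (Seurat 5.3.0, resolution 0.4, 14 clusters) served as an alternative. Counts were summed per cell type and library and divided by the total of those cells to give counts per 1000000 (CPM). The hepatocyte RNA in a class was taken as the level of hepatocyte markers there as a percent of their level in hepatocytes. For the subtraction, this percent of the hepatocyte profile was taken off and negative values were discarded. The remainder was then rescaled to 1000000, so ratios after subtraction include this rescaling. Intervals are Poisson for levels and Clopper-Pearson for ratios (SciPy 1.17.1), and the script was tested on simulated data. The genes named are the 10 members and, of 70 other pathway genes, those with at least 50 counts and a difference of at least 2-fold. Pathway genes between 1.5-fold and 2-fold, those called only with the hepatocyte profile subtracted, Nfkbia, Socs3 in stellate cells and macrophages, and the single cells described, were chosen after their values were seen. The genes nearest in pattern are the 3 with the highest Pearson correlation of log2(CPM + 5) among genes with at least 200 counts, and some of them are not reported here. The members, gene lists and markers were chosen with earlier results of these data known, and the gate limits and the limit of the lipid-associated score were set after the data were seen. Gene positions are from GENCODE vM21.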

Additional observations from a re-analysis of the deposited data

How the results depend on the processing

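No paired analysis was possible because each genotype has 1 library, and no library could be left out. Of 281 values of single log2 ratios under the alternatives, 229 stayed within the counting interval of the reported value, 52 did not, and 0 of the ratios reported as past 1.5-fold changed sign. Ratios reported as under 1.5-fold could change sign, such as Il1a in stellate cells, from -1.17 to 0.72. The number of genes past 1.5-fold in macrophages, 2, was 0 with clusters in place of gates and 1 in the macrophages low in lipid-associated markers, and lay at 2 or 3 otherwise. In stellate cells it was 1 with clusters and 1 (Il1a) with the hepatocyte profile subtracted, and in endothelial cells 1 (Il1r1) with the profile subtracted, against 0. In hepatocytes it was 1 without cells over 3 times the median count and 1 without the 5 cells with the most counts of a gene, and in cholangiocytes 1 with clusters, 1 with a stricter gate and 1 without cells over 3 times the median count, against 2 in each. The causes were not tested. Ratios ranged from -1.49 to -0.13 for Tnf and from 0.44 to 1.70 for Il1b in macrophages, from 1.35 to 1.75 for Il1a and from 0.11 to 0.91 for Il1b in hepatocytes, and from -3.15 to -0.94 for Il1rn in cholangiocytes. The number of genes with the same highest cell type in both libraries was 8 to 10. Scaling by the median ratio of genes shifted the ratios by -0.13 in endothelial cells, 0.13 in cholangiocytes and -0.09 to 0.04 in the other 3 cell types, and left the 5 counts of genes past 1.5-fold as they were. The alternatives for cholangiocytes, the 2 macrophage ranges, the limit of 25 cells the removal of the 5 top cells and the subtraction for the other pathway genes were added after the data were seen. Depth limits most statements outside the 5 cell types compared, where most levels rest on under 50 counts.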

Other observations

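Il1rn was also found in cells that met no gate, at 16.6 CPM (197 counts) and 29.5 CPM (390 counts) in the libraries labelled AEG-1DMAC and AEG-1fl/fl, and Tnf in the same cells at 7.86 CPM (93 counts) and 3.10 CPM (41 counts). One such cell of the library labelled AEG-1fl/fl held 72 counts of Il1rn and 3 of Tnf in a total of 83603, with 2003 counts of Mmp12 and 642 of Gpnmb, genes of lipid-associated macrophages. In the cell of the other library that held 47 counts of Tnf there were 24 of Il1rn, 2 of Il1b and 0 of Nlrp3. Cells with the markers of more than 1 type held Il1b at 105.9 and 122.8 CPM (109 and 110 counts).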
